A study of Mus musculus with 6 samples.

Results

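A group of 108 genes was far lower in a single culture of β1-WT-GFP cells, culture C, than in its sister cultures A and B. The members were chosen by the CPM (a gene's counts scaled to the column total) of the 3 β1-WT-GFP cultures: at least 20 CPM in cultures A and B, and in each of these, after adding 0.5, at least 8 times the value of culture C. They are 108 of the 23420 gene symbols in the table, and 108 of the 7166 genes that had at least 20 CPM in cultures A and B (1.51%). The low level in culture C is what selected them and is given as a description, with no test.

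The cells are eEnd2, an endothelial line from mouse embryos transfected with human Integrin-β1A carrying GFP in its extracellular part, either in the wildtype form (β1-WT-GFP) or with the K794Q exchange of a lysine for glutamine (β1-K794Q-GFP). Expression was driven by a short piece of the human β-actin promoter beside a chicken lysozyme matrix attachment region, and no deletion of the mouse gene Itgb1 is described. Cells were sorted for GFP into a low and a high population, and from which of them each culture was grown is not given. Confluent cultures of each form, 3 in number, named A, B and C and called WT and K794Q cultures here, gave total RNA, from which ribosomal RNA was removed ahead of sequencing. The incubator's CO2 level is lower in the labels than in the study's methods.

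The column totals of WT cultures A, B and C were 10918600, 9589826 and 15287191 counts, and those of the K794Q cultures 10203916, 11197729 and 11071680. WT culture C was thus the deepest. A count of 0 is compatible with up to 3 counts, which is 0.196 CPM there and 0.268 to 0.313 CPM in the other cultures. These limits cover counting error only. The members had between 1 and 1211 counts in WT culture C, with a median of 102, and none was at 0 there. Together they took 2.58% and 2.62% of the counts of WT cultures A and B and 0.142% of those of WT culture C. In K794Q cultures A, B and C they took 2.07%, 1.29% and 0.939%. In bulk RNA, fewer cells of a type and less RNA per cell cannot be told apart.

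Type I interferons bind the receptor pair Ifnar1 and Ifnar2, whose Janus kinases activate transcription factors, Stat2 among them. Together with Irf9 these bind interferon-stimulated response elements and switch on a large set of antiviral genes, including those for Stat2 and Irf7. Endothelial cells respond to interferon and also hold a basal level of many of these transcripts, which sense viral RNA, block its translation or replication, or present peptides on MHC class I.

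By what their products are known for, 61 of the 108 members are interferon-inducible genes, a grouping made after the values were seen. Genes outside the members were not grouped in this way, so no share over all genes can be set beside this count. Of 28 genes in a list of interferon response genes, 27 reached 20 CPM in WT cultures A and B. Of those 27, 23 (85.2%) are members, beside 1.51% of all 7166 genes at that level. The 4 others were Irf9, Bst2, Ifi35 and Ddx58, and their ratios of WT culture A or B to C, whichever was smaller, were 5.78, 5.85, 5.23 and 3.90. The remaining 47 members include secreted growth factors and their binding proteins, surface receptors, ion channels and transporters. By annotation 104 members are protein-coding. The exceptions are Mx2 and Oas1b, annotated as polymorphic pseudogenes, H2-K2, a transcribed unprocessed pseudogene, and 4930432J09Rik, a long intergenic non-coding RNA.

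The name "lost only in WT culture C" says more than the values: the members were lower there and none was at 0, and some were low in other cultures too. In K794Q cultures A, B and C, 11, 22 and 15 of the 108 members (10.2%, 20.4% and 13.9%) were also at least 8-fold below both WT cultures A and B. Among all 7166 genes these shares were 0.516%, 1.56% and 0.530%. Conversely 79, 27 and 35 members were less than 2-fold below WT cultures A and B in K794Q cultures A, B and C (73.1%, 25% and 32.4%), while 96.1%, 92.1% and 95.2% of all 7166 genes were. The same WT cultures A and B chose the members and stand in these ratios, so nothing is read from the gap to the background. A total of 80 members met the 8-fold rule in none of the K794Q cultures, 15 in a single culture, 6 in a pair and 7 in all of them.

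Along the same lines, 92 of the 108 members had all 3 K794Q cultures above WT culture C (35.8% of the 7166 genes), and 66 had all 3 below WT cultures A and B (29.6%). Only Igf1 and Fam212b (Inka2 in current nomenclature) had all 3 K794Q cultures above WT cultures A and B, against 11.6% of the 7166 genes. The 61 interferon-inducible members accounted for 61 of the 92 and 35 of the 66. All 3 WT cultures chose the members, so nothing is read from the gaps between these counts and the shares of all genes.

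**Figure D1:**
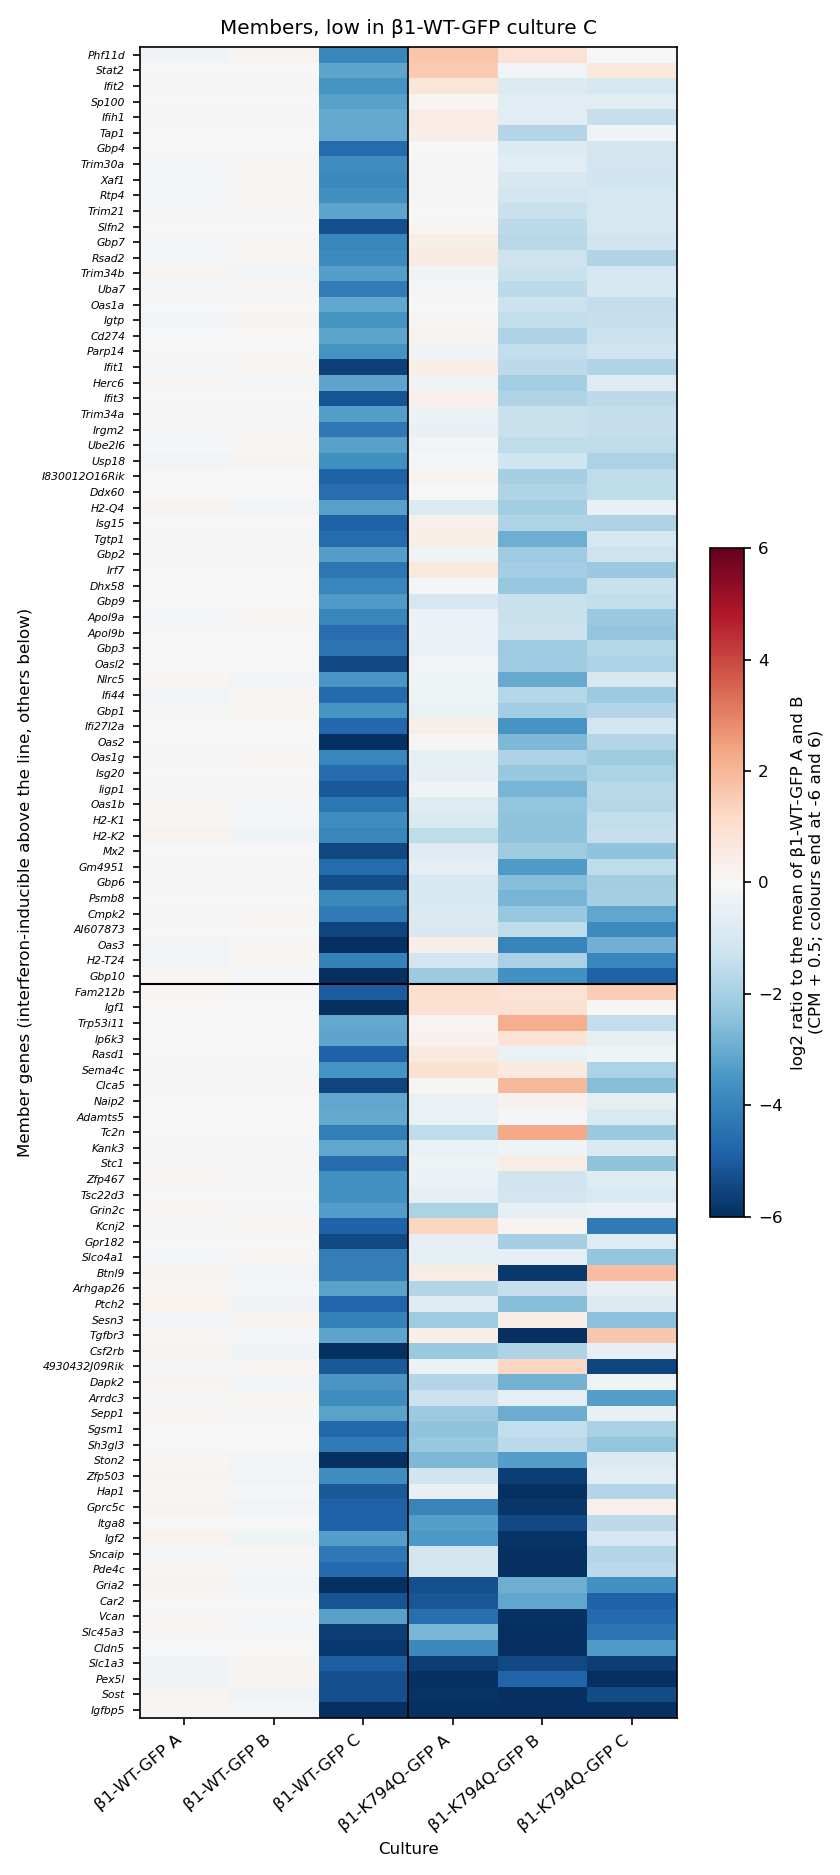
Lines are members, of which 1 is not shown, and columns are cultures; colour gives the log2 ratio of CPM + 0.5 to that of the mean of WT cultures A and B, ending at -6 and 6. Interferon-inducible members (above the black line) are pale in K794Q culture A and intermediate in K794Q cultures B and C, whereas the other members (below it) differ from gene to gene.

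The same rule was turned on each other culture, asking for at least 20 CPM in the other cultures of its group. No gene met it for WT culture A (0 of 6500 genes, 0%) or WT culture B (0 of 6502, 0%). For K794Q cultures A, B and C it found 1 of 6496 genes (0.0154%), 85 of 7122 (1.19%) and 7 of 6555 (0.107%). The 85 genes low in K794Q culture B hold 7 of the members, Btnl9, Hap1, Pde4c, Slc45a3, Sncaip, Tgfbr3 and Zfp503, which is 8.24% of that list and 6.48% of the members. Kcnj2 and 4930432J09Rik are among the 7 genes low in K794Q culture C (28.6% of that list, 1.85% of the members). None of these 9 shared genes is interferon-inducible. In the opposite direction, 105 genes with at least 20 CPM in WT culture C were at least 8-fold higher there than in WT cultures A and B.

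WT cultures A and B were also the most alike pair within either form. No gene with at least 20 CPM in the higher culture was 8-fold apart between them, against 234 for WT cultures A and C and 229 for B and C. The corresponding numbers were 185, 38 and 270 for K794Q cultures A and B, A and C, and B and C. The counts of WT cultures A and B differed by 10.1 chi-square units for each degree of freedom, and those of the other pairs within a form by 59.4 to 284. The labels describe different cultures, and A and B were treated as such.

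Relative to the mean of WT cultures A and B, the median log2 value of the 61 interferon-inducible members was -3.91 in WT culture C and -0.16, -1.79 and -1.47 in K794Q cultures A, B and C. The 7166 genes had medians of -0.16, -0.09, -0.19 and -0.09 in the same 4 cultures. The medians thus correspond to 6.67% of the level of WT cultures A and B in WT culture C, and to 89.7%, 28.9% and 36.2% in K794Q cultures A, B and C. K794Q culture A was the highest of the K794Q cultures in 59 of the 61 genes, and culture C in the remaining pair, H2-K2 and H2-Q4. Culture B was the lowest in 35 and culture C in 26. This order was not counted over all 7166 genes, and the 61 genes were grouped after values were seen. By their medians the 61 genes also varied within the K794Q form. K794Q culture A lay near WT cultures A and B, and K794Q cultures B and C between these and WT culture C. With TMM-scaled library sizes the median of the 7166 genes was -0.01 in WT culture C and 0.01 in K794Q culture B, and the medians of the 61 genes were -3.76 and -1.59.

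The other 47 members had a median log2 ratio of -4.61 in WT culture C and of -1.22, -1.85 and -1.56 in K794Q cultures A, B and C, and they did not share an order. K794Q culture A was the highest of the K794Q cultures in 13 of them, culture B in 19 and culture C in 15. Their ratios ran from -7.72 to 1.28 in K794Q culture A, from -9.09 to 2.28 in culture B and from -7.95 to 1.84 in culture C.

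**Figure D2:**
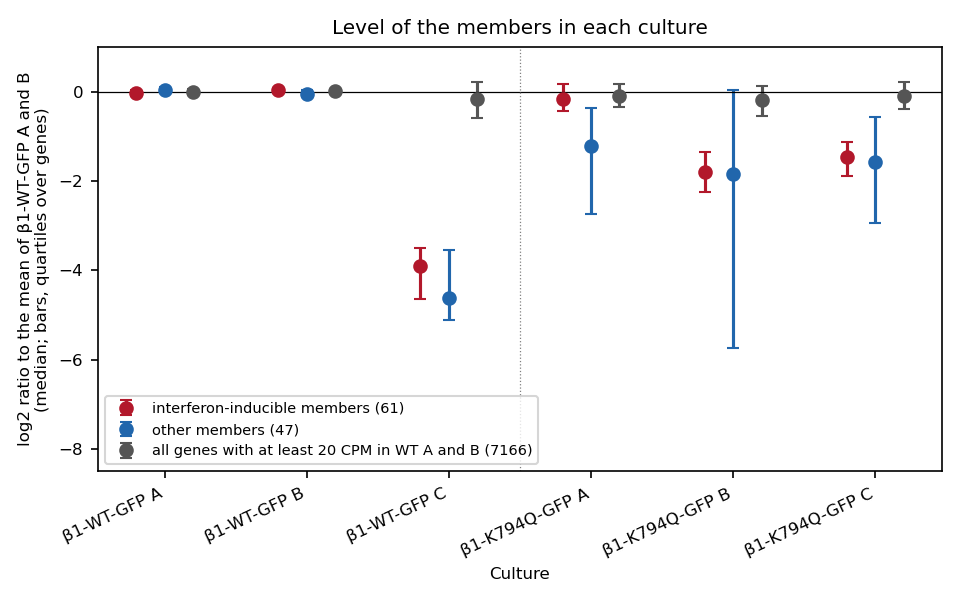
Points give the median log2 ratio of each culture to WT cultures A and B averaged, and bars the quartiles over genes, for the 61 interferon-inducible members, the 47 other members and all 7166 genes. The interferon-inducible members lie at -0.16 in K794Q culture A and at -1.79 and -1.47 in B and C, with narrower quartiles than the other members.

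Among the sensors of viral RNA, Ifih1, the helicase MDA5, had 174, 192 and 21.1 CPM in WT cultures A, B and C and 249.5, 116 and 69.4 CPM in K794Q cultures A, B and C. Dhx58, the related helicase LGP2, had 206, 195 and 12.9 CPM in WT cultures A, B and C and 193, 41.1 and 79.5 CPM in K794Q cultures A, B and C. For both genes WT culture C was the lowest of the 6, K794Q culture A lay near or above WT cultures A and B, and K794Q cultures B and C lay in between. Ddx60, a cofactor of these helicases, had 275, 267 and 11 CPM in WT cultures A, B and C and 278, 76.3 and 93.2 CPM in K794Q cultures A, B and C.

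Of the signal transducers, Stat2, a transcription factor downstream of the interferon receptors, had 399.5, 376 and 42.7 CPM in WT cultures A, B and C and 1144, 345 and 592 CPM in K794Q cultures A, B and C, so that K794Q cultures A and C lay above every WT culture and K794Q culture B below WT cultures A and B. Irf7, a transcription factor that amplifies the response, had 269.7, 276 and 13.2 CPM in WT cultures A, B and C and 424, 66.7 and 57.1 CPM in K794Q cultures A, B and C. Irf7 was thus near its level of WT cultures A and B, or above it, in K794Q culture A alone.

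The antiviral effectors, 18 members, had a median of 4.52% of the level of WT cultures A and B in WT culture C, and of 99.5%, 31.0% and 32.1% in K794Q cultures A, B and C. Ifit1, which binds viral RNA lacking a host cap, had 473, 568 and 10.3 CPM in WT cultures A, B and C and 661, 177 and 151 CPM in K794Q cultures A, B and C. Its neighbour Ifit3 had 556, 569 and 14.9 CPM in WT cultures A, B and C and 691, 158 and 187 CPM in K794Q cultures A, B and C, and Ifit2 had 416, 471 and 38.1 CPM in WT cultures A, B and C and 738, 254 and 216 CPM in K794Q cultures A, B and C. All 3 had their highest value in K794Q culture A and their lowest in WT culture C. Oas2, a synthase of the 2′-5′ oligoadenylates that activate RNase L, had the largest ratio of WT cultures A and B to C among the interferon-inducible members, 138, with 294, 309.9 and 1.64 CPM in WT cultures A, B and C and 318, 46.3 and 88.8 CPM in K794Q cultures A, B and C. Oas3, of the same family, had 141, 172 and 1.7 CPM in WT cultures A, B and C and 206, 9.2 and 21 CPM in K794Q cultures A, B and C. In both genes K794Q cultures B and C were also below K794Q culture A, by more in Oas3 than in Oas2. Rsad2, or viperin, had 407, 467 and 30.0 CPM in WT cultures A, B and C and 605, 185 and 125 CPM in K794Q cultures A, B and C. Mx2, a dynamin-like GTPase, had 235, 225 and 4.71 CPM in WT cultures A, B and C and 136, 51.7 and 42.2 CPM in K794Q cultures A, B and C, where K794Q culture A lay below WT cultures A and B.

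Oasl2, a further relative of the synthases, had 346, 348 and 7.59 CPM in WT cultures A, B and C and 311, 77.7 and 92 CPM in K794Q cultures A, B and C. The ubiquitin ligase Trim30a had 409, 464 and 32.2 CPM in WT cultures A, B and C and 407, 269 and 199 CPM in K794Q cultures A, B and C. K794Q culture A was within 2-fold of WT cultures A and B in both. Of the interferon-inducible genes with other roles, Ifi44 had 769, 929 and 33 CPM in WT cultures A, B and C and 679, 255 and 185 CPM in K794Q cultures A, B and C, and the mono-ADP-ribosyl transferase Parp14 had 681, 719.7 and 58.7 CPM in WT cultures A, B and C and 599, 249 and 304 CPM in K794Q cultures A, B and C. Xaf1, known for binding an inhibitor of apoptosis, had 539, 609 and 38.3 CPM in WT cultures A, B and C and 599, 296 and 250.5 CPM in K794Q cultures A, B and C, and Rtp4 had 198, 212 and 15.31 CPM in WT cultures A, B and C and 189, 93.9 and 98.7 CPM in K794Q cultures A, B and C. In these 4 genes WT culture C was the lowest and K794Q culture A the highest K794Q culture. AI607873 had 289.9, 284 and 5.89 CPM in WT cultures A, B and C and 147, 98.7 and 19.5 CPM in K794Q cultures A, B and C, and Cmpk2, a mitochondrial nucleotide kinase, had 186, 224 and 10.2 CPM in WT cultures A, B and C and 111, 42.6 and 23.1 CPM in K794Q cultures A, B and C. Both had their lowest K794Q value in culture C. Ifi27l2a had 35.4, 35.2 and 0.850 CPM in WT cultures A, B and C and 45, 2.59 and 15.6 CPM in K794Q cultures A, B and C, with the lowest K794Q value in culture B.

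Isg15, the ubiquitin-like modifier, had 122, 129.5 and 3.86 CPM in WT cultures A, B and C and 154, 36 and 34.2 CPM in K794Q cultures A, B and C. Its activating enzyme Uba7 had 144, 161 and 7.85 CPM in WT cultures A, B and C and 139, 50.2 and 77.5 CPM in K794Q cultures A, B and C. Usp18, the protease that takes Isg15 off its targets, had 146, 180.3 and 12.1 CPM in WT cultures A, B and C and 148, 71 and 43.2 CPM in K794Q cultures A, B and C. The conjugating enzyme Ube2l6 and the ligase Herc6 are members as well, so that modifier, activation, conjugation and removal each have a member. Their low level in WT culture C is what chose them, and only members were read for this role. The 5 genes had medians of 7.71% of the level of WT cultures A and B in WT culture C and of 90.9%, 33.2% and 35.1% in K794Q cultures A, B and C.

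The guanylate-binding proteins and immunity-related GTPases, which attack the vacuoles of intracellular pathogens, gave 13 members. Gbp2 had 129, 147 and 13.5 CPM in WT cultures A, B and C and 116, 30.6 and 58.8 CPM in K794Q cultures A, B and C. Gbp9 had 811, 817 and 76.5 CPM in WT cultures A, B and C and 404, 319.6 and 295 CPM in K794Q cultures A, B and C. Gbp10 had a single count in WT culture C, with 40.8 and 34.4 CPM in WT cultures A and B and 7.94, 2.59 and 0.813 CPM in K794Q cultures A, B and C. Medians of the 13 genes were 4.68% of the level of WT cultures A and B in WT culture C, and 77.1%, 22.9% and 36.3% in K794Q cultures A, B and C.

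Genes of MHC class I presentation gave 7 members and had the lowest medians of the interferon-inducible roles in K794Q cultures A and B, with values of 52.5%, 19% and 38.8% of WT cultures A and B in K794Q cultures A, B and C and 7.48% in WT culture C. The class I heavy chain H2-K1 had 475, 428 and 33.3 CPM in WT cultures A, B and C and 237, 85.3 and 160.0 CPM in K794Q cultures A, B and C. Tap1, a subunit of the peptide transporter, had 52.3, 53.4 and 5.89 CPM in WT cultures A, B and C and 68.8, 15.2 and 45 CPM in K794Q cultures A, B and C, and Psmb8, a subunit of the immunoproteasome, had 42.6, 40.6 and 2.35 CPM in WT cultures A, B and C and 21.3, 5.63 and 10.2 CPM in K794Q cultures A, B and C. Nlrc5, the transactivator of class I genes, had 57.3, 47 and 4.19 CPM in WT cultures A, B and C and 43.3, 6.07 and 26.3 CPM in K794Q cultures A, B and C. K794Q culture B was the lowest K794Q culture in all 4. Of a list of 15 genes of class I presentation, 11 reached 20 CPM in WT cultures A and B and 5 are members. The light chain B2m, with the highest level of the list, is not a member, and had 1349, 1527 and 328 CPM in WT cultures A, B and C and 907, 415 and 659 CPM in K794Q cultures A, B and C. Since the class I heavy chains, the guanylate-binding proteins, Oas1a, Oas1b and Oas1g, Apol9a and Apol9b, Trim34a and Trim34b, and Ifit3 and I830012O16Rik (Ifit3b) are close relatives that can share reads, the split of counts within these families is uncertain. Gbp4 overlaps Gbp9, and Igtp overlaps Irgm2, on the same strand.

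**Figure D3:**
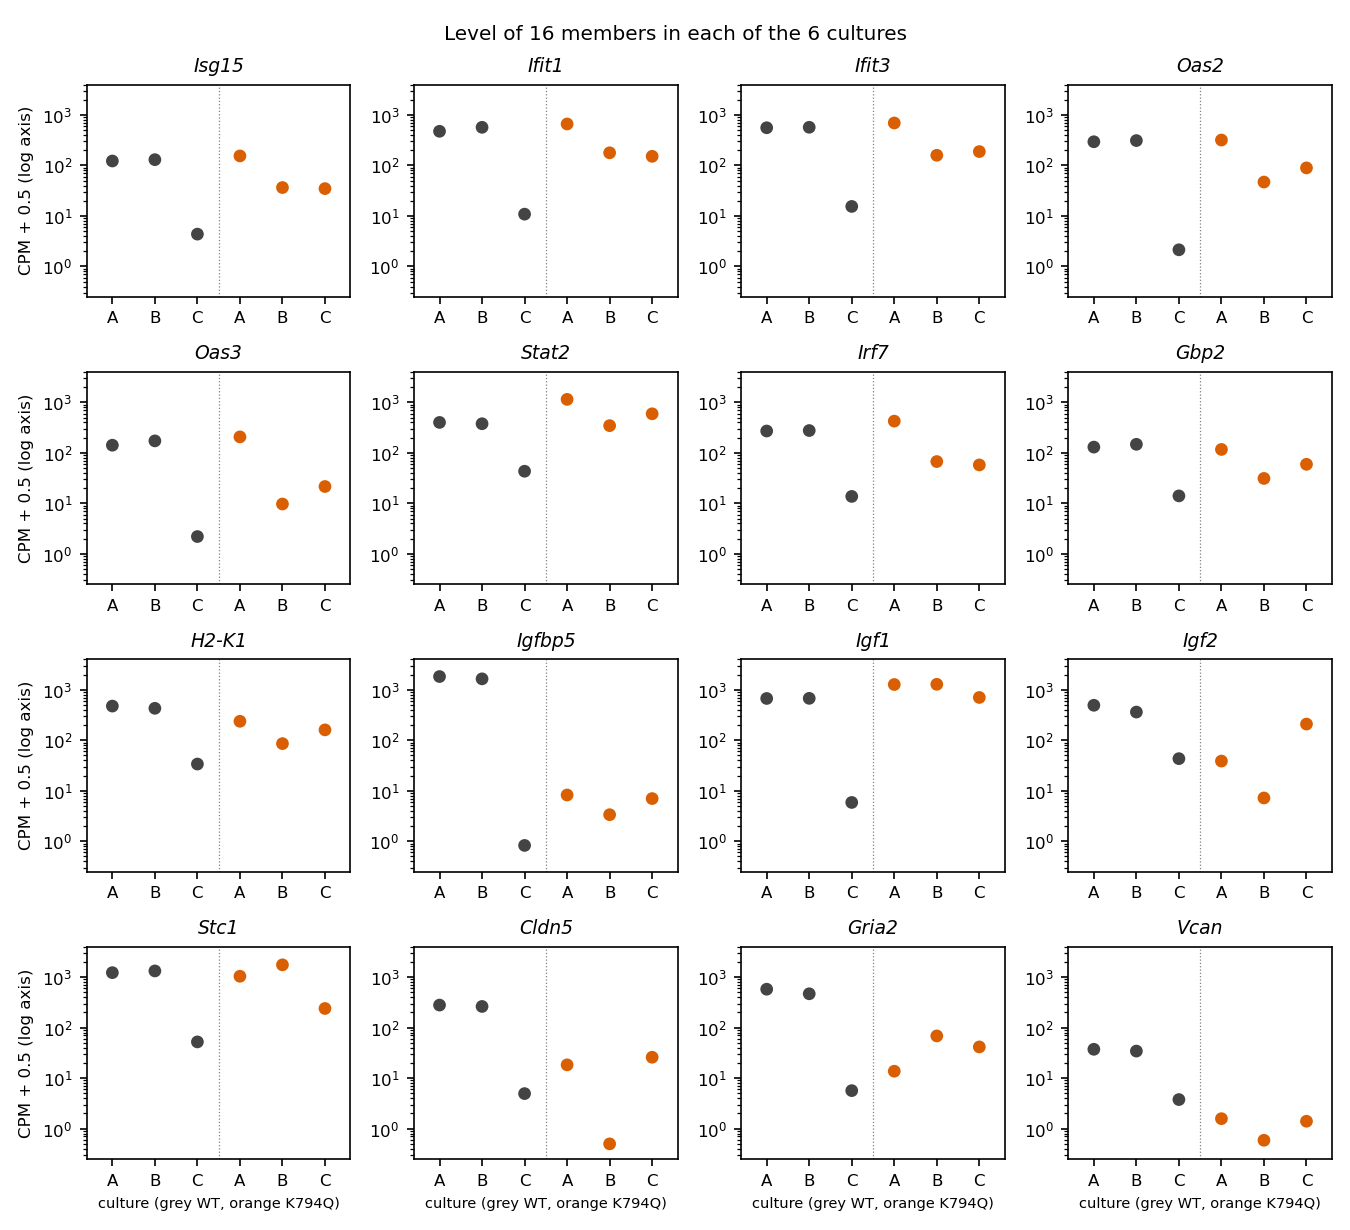
CPM + 0.5 on a log axis in WT (grey) and K794Q (orange) cultures A, B and C for 16 members. Isg15, Ifit1, Ifit3, Oas2 and Irf7 share an order, with K794Q culture A near WT cultures A and B and K794Q cultures B and C lower, whereas Igfbp5 is below 10 CPM in every K794Q culture and Igf1 is above 700 CPM in each.

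To show what the promoters of these co-varying genes hold, RefSeq windows from 250 bases before to 50 bases after each start site (GRCm38.p6) were matched by symbol. They were given for 78 of the 108 members (72.2%), under the 80% needed to describe the whole set, so a check over all members is void and the counts below describe the genes with a window. The letters searched, on both strands, were GAAA, any 2 bases and GAAA in a row, the core of the interferon-stimulated response element (ISRE). The upstream 250 bases are printed 5′ to 3′ in the direction of transcription, with ISRE matches in capitals, for Isg15 (chr4:156200819-156201068, minus strand), Ifit1 (chr19:34640639-34640888, plus strand), Ifit3 (chr19:34583279-34583528, plus strand) and Gbp2 (chr3:142620413-142620662, plus strand).
Isg15: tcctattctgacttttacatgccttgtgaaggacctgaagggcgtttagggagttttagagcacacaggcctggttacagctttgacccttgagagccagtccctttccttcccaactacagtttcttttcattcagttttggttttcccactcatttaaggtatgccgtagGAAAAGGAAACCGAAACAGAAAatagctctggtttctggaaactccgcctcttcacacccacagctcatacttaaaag
Ifit1: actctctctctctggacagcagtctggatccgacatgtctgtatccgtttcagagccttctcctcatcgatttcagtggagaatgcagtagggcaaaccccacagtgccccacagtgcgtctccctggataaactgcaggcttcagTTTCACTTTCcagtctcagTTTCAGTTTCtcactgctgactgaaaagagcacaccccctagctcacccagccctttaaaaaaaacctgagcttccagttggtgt
Ifit3: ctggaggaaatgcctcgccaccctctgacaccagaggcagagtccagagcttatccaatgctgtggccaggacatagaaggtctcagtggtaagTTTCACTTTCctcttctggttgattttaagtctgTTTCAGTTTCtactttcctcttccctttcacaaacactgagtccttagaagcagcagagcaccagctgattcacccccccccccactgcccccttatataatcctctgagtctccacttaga
Gbp2: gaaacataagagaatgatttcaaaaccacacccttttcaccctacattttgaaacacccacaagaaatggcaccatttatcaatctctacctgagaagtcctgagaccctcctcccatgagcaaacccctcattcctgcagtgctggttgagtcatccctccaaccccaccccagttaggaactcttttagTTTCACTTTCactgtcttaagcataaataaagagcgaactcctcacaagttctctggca

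In Isg15 3 overlapping matches form the capitals, Ifit1 and Ifit3 hold 2 separate matches each on the opposite strand, and Gbp2 holds 1. The windows of Igfbp5 (chr1:72874866-72875115, minus strand) and Igf1 (chr10:87860861-87861110, plus strand), the members with large ratios outside the interferon-inducible group, are shown for comparison and have no match to these letters.
Igfbp5: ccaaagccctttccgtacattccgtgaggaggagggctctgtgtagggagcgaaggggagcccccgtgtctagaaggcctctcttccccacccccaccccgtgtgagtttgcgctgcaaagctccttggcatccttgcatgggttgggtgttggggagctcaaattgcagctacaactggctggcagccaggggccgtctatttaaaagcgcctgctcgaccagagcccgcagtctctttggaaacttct
Igf1: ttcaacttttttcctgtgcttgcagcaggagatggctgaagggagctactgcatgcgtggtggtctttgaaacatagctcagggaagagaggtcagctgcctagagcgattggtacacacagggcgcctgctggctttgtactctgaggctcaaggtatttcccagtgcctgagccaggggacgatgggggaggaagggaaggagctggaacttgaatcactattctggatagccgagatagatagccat

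An ISRE match was in the window of 24 of the 43 interferon-inducible members with a window (55.8%) and of 2 of the 35 other members, Sepp1 and Igf2 (5.71%). Of all 27025 genes with a window 3.99% had a match, and 3.44% of all 32851 windows. The grouping rests on a known response to interferon, which acts through these elements, so nothing is read from the gaps between these shares. All 7 guanylate-binding protein or immunity-related GTPase genes with a window had a match, as did 10 of 15 antiviral effectors, and none of the 4 genes of MHC class I presentation. The 41 matches of the interferon-inducible members had a median distance of 54 bases before the start site, and 33 lay within the 150 bases before it. A further motif that was searched is not reported. A match is a description of letters and not a bound site, and a gene without one may hold other elements or lie outside this window.

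**Figure D4:**
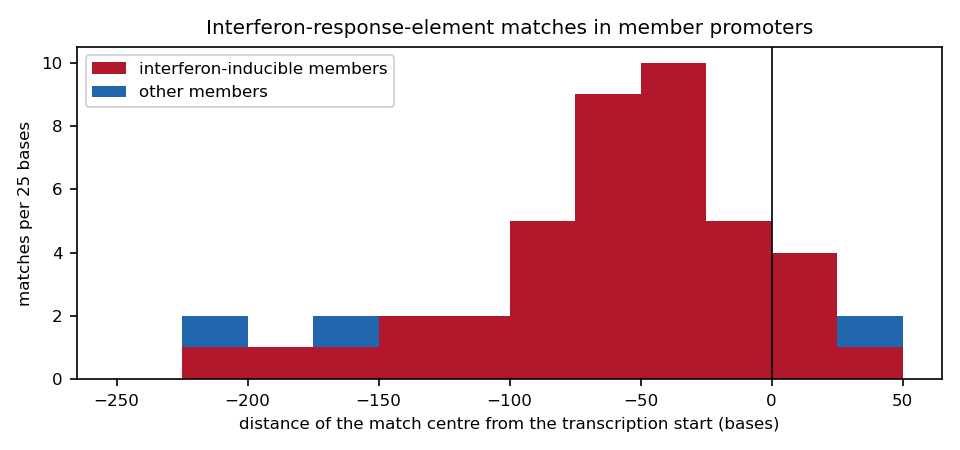
Number of ISRE matches per 25 bases, by the distance of their centre from the transcription start, for members with a promoter window; negative distances lie before the start. The 41 matches of interferon-inducible members gather before the start, 33 of them within 150 bases, against 3 matches in other members.

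The genes of the pathway above these targets were read from a list of ligands, receptors, kinases, factors and sensors, written after the values of the members were seen. Transcripts of the 10 interferon ligands examined were at most 0.294 CPM in any culture, and Ifng and the 4 interferon alpha genes had 0 counts in all 6. The receptor chain Ifnar1 had 359, 378 and 114 CPM in WT cultures A, B and C and 185, 273 and 229 CPM in K794Q cultures A, B and C, and its partner Ifnar2 had 57.3, 62.9 and 41.9 CPM in WT cultures A, B and C and 38.3, 73 and 44.4 CPM in K794Q cultures A, B and C. Jak1 had 269, 302 and 299 CPM in WT cultures A, B and C and 236, 319.6 and 286 CPM in K794Q cultures A, B and C. Ifnar1 was thus the lowest in WT culture C of all 6, by less than the 8-fold rule, while Jak1 in WT culture C lay within the range of the other cultures. The receptor kinase Tyk2 had 102, 94.3 and 50.2 CPM in WT cultures A, B and C and 64.7, 55.5 and 68.8 CPM in K794Q cultures A, B and C, and Jak2 had 33.2, 41.1 and 74.4 CPM in WT cultures A, B and C and 63.7, 164 and 84.7 CPM in K794Q cultures A, B and C. Tyk2 was lowest in WT culture C, and Jak2 was above WT cultures A and B there. The transcription factor Irf1 had 126, 112 and 20.5 CPM in WT cultures A, B and C and 56.5, 29.4 and 59.3 CPM in K794Q cultures A, B and C, also lowest in WT culture C. Irf9, which acts with Stat2, had 147, 157 and 25.1 CPM in WT cultures A, B and C and 141, 120.5 and 81.2 CPM in K794Q cultures A, B and C. Tlr3, a sensor of viral RNA in endosomes, had 181, 209.6 and 34.8 CPM in WT cultures A, B and C and 261, 98.9 and 117 CPM in K794Q cultures A, B and C. Both followed the order of the interferon-inducible members, with the lowest value in WT culture C. The adaptor Mavs had 25.6, 31 and 21.1 CPM in WT cultures A, B and C and 29.1, 25.7 and 29 CPM in K794Q cultures A, B and C, a range within which WT culture C was the lowest but by less than 2-fold.

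Turning to the 47 other members, the insulin-like growth factor system gave 3. Igfbp5, which binds and modulates these factors, had 1825, 1643 and 0.327 CPM in WT cultures A, B and C and 7.74, 2.86 and 6.5 CPM in K794Q cultures A, B and C, the largest ratio of all members. WT culture C held 5 counts of it, and the K794Q cultures were also far below WT cultures A and B. Igf1 had 672, 675 and 5.36 CPM in WT cultures A, B and C and 1269, 1280.3 and 703 CPM in K794Q cultures A, B and C, so that it was low in WT culture C alone among the 6 cultures. The imprinted gene Igf2 had 492, 361 and 42.7 CPM in WT cultures A, B and C and 38.2, 6.7 and 209 CPM in K794Q cultures A, B and C, with K794Q culture B the lowest of all. The 3 genes share WT culture C as a low culture and differ in the K794Q cultures.

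Further secreted products were Stc1, the glycoprotein stanniocalcin, with 1227, 1328 and 51.7 CPM in WT cultures A, B and C and 1042, 1753 and 239 CPM in K794Q cultures A, B and C, and Sepp1 (Selenop), a selenium carrier, with 654, 553 and 64.6 CPM in WT cultures A, B and C and 133, 75.3 and 443 CPM in K794Q cultures A, B and C. Stc1 was high in K794Q cultures A and B and lower in C, whereas Sepp1 was highest in C among the K794Q cultures. The matrix proteoglycan Vcan had 36.8, 33.9 and 3.27 CPM in WT cultures A, B and C and 1.08, 0.0893 and 0.903 CPM in K794Q cultures A, B and C. Sost, an antagonist of Wnt signalling, had 53.1, 40.5 and 0.720 CPM in WT cultures A, B and C and 0.294, 0 and 0.632 CPM in K794Q cultures A, B and C. Vcan was therefore lower in each K794Q culture than in WT culture C, while Sost, with 11 counts in WT culture C, had 3, 0 and 7 in K794Q cultures A, B and C, where culture B was lower by the limit for 0 counts and A and C were not ranked.

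Among surface proteins the endothelial tight junction protein Cldn5 had 279, 263 and 4.45 CPM in WT cultures A, B and C and 17.8, 0 and 25.5 CPM in K794Q cultures A, B and C. Of 21 integrin genes, 9 reached 20 CPM in WT cultures A and B, and Itga8 was the only member. Itga8 had 96.4, 99.3 and 2.88 CPM in WT cultures A, B and C and 9.31, 1.79 and 32.8 CPM in K794Q cultures A, B and C. Tgfbr3, the co-receptor betaglycan, had 42, 37.4 and 3.92 CPM in WT cultures A, B and C and 53.2, 0 and 124 CPM in K794Q cultures A, B and C, at 0 counts in K794Q culture B and above all WT cultures in K794Q cultures A and C. Csf2rb, the shared beta chain of cytokine receptors, had 104, 75.8 and 0.916 CPM in WT cultures A, B and C and 18.7, 24.5 and 62.7 CPM in K794Q cultures A, B and C. Ston2, a protein of endocytosis, had 76.6, 62.9 and 0.589 CPM in WT cultures A, B and C and 10.2, 6.52 and 38 CPM in K794Q cultures A, B and C. None of these 5 genes had the order of the interferon-inducible members.

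Channels and transporters gave 6 members. Gria2, a subunit of AMPA-type glutamate receptors, had 577, 468 and 5.17 CPM in WT cultures A, B and C and 13.2, 68.1 and 41.1 CPM in K794Q cultures A, B and C. Slc45a3, a sugar transporter, had 502, 447 and 9.09 CPM in WT cultures A, B and C and 69.5, 1.16 and 22.3 CPM in K794Q cultures A, B and C, and the glutamate transporter Slc1a3 had 21.7, 27.9 and 0.327 CPM in WT cultures A, B and C and 0, 0.0893 and 0 CPM in K794Q cultures A, B and C. The organic anion transporter Slco4a1 had 698, 793.7 and 42 CPM in WT cultures A, B and C and 498, 509 and 149 CPM in K794Q cultures A, B and C. Slco4a1 remained within 2-fold of WT cultures A and B in K794Q cultures A and B, while Gria2, Slc45a3 and Slc1a3 were at least 6-fold below in all K794Q cultures. Kcnj2 had 122, 143 and 4.06 CPM in WT cultures A, B and C and 322, 146 and 6.59 CPM in K794Q cultures A, B and C. Grin2c had 53.5, 46.5 and 4.38 CPM in WT cultures A, B and C and 12.8, 34.9 and 39.3 CPM in K794Q cultures A, B and C. Grin2c was thus within 2-fold of WT cultures A and B in K794Q cultures B and C.

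The 7 members at least 8-fold below WT cultures A and B in all K794Q cultures were Car2, Cldn5, Igfbp5, Pex5l, Slc1a3, Sost and Vcan. Pex5l, a regulator of HCN channels, had 56.7, 74.1 and 1.18 CPM in WT cultures A, B and C and 0.490, 1.88 and 0.452 CPM in K794Q cultures A, B and C. Car2, a carbonic anhydrase, had 34.2, 35 and 0.458 CPM in WT cultures A, B and C and 0.490, 3.48 and 0.723 CPM in K794Q cultures A, B and C. At the other end, the highest mean ratios in the K794Q cultures were those of Fam212b, Phf11d, Stat2, Igf1, Trp53i11 and Ip6k3. Fam212b had 25.9, 21.9 and 0.262 CPM in WT cultures A, B and C and 48.9, 43.6 and 66.7 CPM in K794Q cultures A, B and C, Phf11d had 29.7, 39.1 and 1.83 CPM in WT cultures A, B and C and 109.9, 63 and 33.8 CPM in K794Q cultures A, B and C, and Trp53i11 had 151, 146 and 17.1 CPM in WT cultures A, B and C and 162, 669 and 52.8 CPM in K794Q cultures A, B and C. All 6 had at least 1 K794Q culture above WT cultures A and B, and in Trp53i11 this was mainly culture B.

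Arrdc3, an arrestin-domain protein, was the member with the most counts in WT culture C, and had 971, 1136 and 79.2 CPM in WT cultures A, B and C and 435, 712 and 106 CPM in K794Q cultures A, B and C. Members just inside the threshold were Herc6, Ifih1 and Kank3, with ratios of 8.04, 8.09 and 8.17. Just outside were Olfm2, Bace2 and Mtss1l, with 7.95, 7.91 and 7.89.

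When the K794Q and WT cultures were compared in the counts of all genes with edgeR's quasi-likelihood test, 106 of the 108 members passed the filter on low counts, Slc1a3 and Sost being left out. Since all 3 WT cultures chose the members, and WT culture C widens the spread of the WT form for each of them, the result is a description. At the thresholds of the study (fold of at least 2 and unadjusted p of at most 0.05), 4 members were lower in K794Q cells, beside 199 of 11608 genes (1.71%), and 0 were higher, beside 404 (3.48%). Unadjusted, 4 of the 106 members reached a p of 0.05 or less, and 0 had an edgeR adjusted p of at most 0.05 in either direction; among all genes 11 were lower (0.0948%) and 10 higher (0.0861%) at that level. This total of 21 was 0 without K794Q culture A, K794Q culture C or WT culture A, 1 without WT culture B, 28 without WT culture C and 125 without K794Q culture B. DESeq2 gave 6 members past both thresholds, all lower, beside 695 of all genes. It gave 3 members with an adjusted p of at most 0.05 (2.83%), beside 477 of the 11608 genes (4.11%). The median log2 fold change was -0.29 for the 61 interferon-inducible members, -0.55 for the 45 others tested and -0.02 for all 11608 genes.

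The 4 genes were Igfbp5 (log2 fold change -7.61, standard error 2.36, edgeR adjusted p = 0.323), Pex5l (-5.40, 1.49 and 0.268), Vcan (-5.11, 1.12 and 0.168) and Car2 (-3.73, 1.5 and 0.470), Car2 being named after its values were seen. In each of them every K794Q culture was below WT cultures A and B. All K794Q cultures in Igfbp5 were above WT culture C. Car2 had 5, 39 and 8 counts in K794Q cultures A, B and C against 7 in WT culture C, and Pex5l had 5, 21 and 5 against 18, most of them too few to rank. Pex5l and Vcan stayed past both thresholds with each culture left out in turn. Igfbp5 did not when any K794Q culture was left out, although its log2 fold change remained between -7.87 and -7.31. Car2 did so only without WT culture C or K794Q culture B, and its log2 fold change was between -3.35 and -3.29 with any other culture left out. With the culture letter as a block Igfbp5 and Car2 were no longer past both thresholds, Pex5l and Vcan were, and Clca5, Phf11d, Sema4c and Trp53i11 were higher. The log2 fold changes of Igfbp5 and Car2 in that fit were still -6.67 and -3.09. Without WT culture C the number of members past both thresholds was 24 (22.2%), of which 23 were lower and 1, Fam212b, higher, against 992 of all genes (8.38%). The WT cultures left in that fit, A and B, were chosen to be high for the members, so nothing is read from this difference. Stat2 had a log2 fold change of 1.39 (standard error 0.81, edgeR adjusted p = 0.667), 0.91 without WT culture C and 0.86 without K794Q culture A.

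Some members are neighbours in the genome (GRCm38, positions by symbol from GENCODE M21). With members less than 500 kb apart joined, 39 of the 108 fell into 13 clusters and 69 had no member so near. Each span ends at its outermost members, and no share of neighbours was computed for other genes, so the clusters are a description. No gene at 20 CPM in WT cultures A and B other than members lay in the spans of Ifit2, Ifit3, I830012O16Rik and Ifit1 on chromosome 19 (34550694 to 34650009), Gbp7, Gbp3, Gbp1 and Gbp2 on chromosome 3 (142530342 to 142638008), or Gbp9, Gbp4, Gbp10 and Gbp6 on chromosome 5 (105077630 to 105293698). The same held for Oas2, Oas3, Oas1b, Oas1g and Oas1a on chromosome 5 (120730333 to 120907521). In the MHC region of chromosome 17 (33810519 to 34201454), by contrast, 5 of 16 such genes were members, H2-K2, H2-K1, Tap1, Psmb8 and the neighbouring Kank3. Members lay on all autosomes and on the X chromosome, with shares of the genes at 20 CPM from 0.462% on chromosome 4 to 2.89% on chromosome 3.

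Markers of endothelial cells were detected in WT culture C, some of them below and others above their level in WT cultures A and B. Of 32 endothelial genes, 29 reached 20 CPM in WT cultures A and B, and Cldn5 was the only member. The list summed to 18004, 19447 and 14387 CPM in WT cultures A, B and C, and to 15044, 23286 and 17719 CPM in K794Q cultures A, B and C. Ptprb was its most abundant gene on average over all cultures, but not in any WT culture. Pecam1 had 1993, 2444 and 1867 CPM in WT cultures A, B and C and 2049, 2550.2 and 1868 CPM in K794Q cultures A, B and C, and Cdh5 had 1401, 1632 and 2092 CPM in WT cultures A, B and C and 1434, 3614 and 1359 CPM in K794Q cultures A, B and C, whereas Vwf was at most 2.45 CPM in any culture. Pecam1 and Cdh5 in WT culture C were within 2-fold of WT cultures A and B, but 10 of the 29 genes (34.5%) were more than 2-fold below both there, against 788 of the 7166 genes (11%). Beside Cldn5 these were Plvap, Mmrn2, Sox18, Stab1, Clec14a, Erg, Cd34, Egfl7 and Icam2, with ratios from 3.71 for Plvap to 2.24 for Icam2. Others of the 29 were above both WT cultures A and B there, by less than 2-fold. They were Cdh5, Kdr, Flt1, Eng, Emcn, Fli1, Sox7, Nos3, Ecscr and Ptprb. Sox17, not among the 29, had 18.8, 22.5 and 117 CPM in WT cultures A, B and C and 99.4, 0.268 and 216 CPM in K794Q cultures A, B and C.

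Markers of other cell types were mostly low, with exceptions in several lists. Nes, of the neural list, had 34.1, 25.8 and 198 CPM in WT cultures A, B and C and 149, 370.3 and 146 CPM in K794Q cultures A, B and C, and Mcam, of the smooth muscle and pericyte list, had 404, 479 and 381 CPM in WT cultures A, B and C and 303, 738 and 183 CPM in K794Q cultures A, B and C. Nes was higher in WT culture C and in the K794Q cultures than in WT cultures A and B. The 13 epithelial genes summed to 0.641, 0.104 and 1.44 CPM in WT cultures A, B and C, and to 0.294, 0.982 and 0.181 CPM in K794Q cultures A, B and C, with 6 of them, Epcam, Krt18, Krt5, Krt14, Cldn4 and Esrp1, at 0 in all cultures. The 23 mesenchymal genes summed to 749, 785 and 819 CPM in WT cultures A, B and C, and to 628, 462 and 559 CPM in K794Q cultures A, B and C, with Zeb1 the highest on average, and Dcn, Lum, Postn, Thy1, Prrx2, Twist1 and Twist2 were at 0 in all. This sum holds genes that differed in opposite directions, named after their values were seen. Prrx1 had 192, 202 and 53.1 CPM in WT cultures A, B and C and 0.0980, 0.0893 and 0 CPM in K794Q cultures A, B and C, whereas Cdh2 had 5.77, 9.07 and 104 CPM in WT cultures A, B and C and 21, 52.1 and 15.4 CPM in K794Q cultures A, B and C and Pdgfra had 0.550, 0.730 and 15.4 CPM in WT cultures A, B and C and 2.35, 0.268 and 0.994 CPM in K794Q cultures A, B and C. Prrx1 was thus low in WT culture C and lower still in the K794Q cultures, and Cdh2 and Pdgfra were highest in WT culture C. The 17 haematopoietic genes summed to 197, 203 and 209.7 CPM in WT cultures A, B and C, and to 78.1, 508 and 40.4 CPM in K794Q cultures A, B and C. Among them Lcp1 was the most abundant on average over all cultures, 6 were at 0 in all, and Ptprc was at most 0.262 CPM. Cd68 was above Lcp1 in K794Q cultures A and C, with 72.4 and 32.6 against 3.53 and 5.78 CPM. No gene of these lists is a member.

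Cell cycle and matrix genes differed between WT cultures too. The 18 S phase genes, led by Rrm1, summed to 605, 539 and 1407 CPM in WT cultures A, B and C, and to 2061, 608 and 2514 CPM in K794Q cultures A, B and C. The 20 G2/M genes summed to 866, 695 and 2434 CPM in WT cultures A, B and C, and to 1347, 735 and 2293 CPM in K794Q cultures A, B and C. Top2a led them in every culture except K794Q culture B, where Mki67 was higher (167 against 129 CPM). WT culture C was thus above WT cultures A and B in both, and K794Q cultures A and C were above them as well, with K794Q culture B near them. The interferon response list summed to 8498, 9332 and 695 CPM in WT cultures A, B and C, and to 9861, 3650.4 and 3557 CPM in K794Q cultures A, B and C. The 30 genes of matrix and basement membrane summed to 12156, 11306 and 31167 CPM in WT cultures A, B and C, and to 10676, 23074 and 15199 CPM in K794Q cultures A, B and C. Of these, Col4a1 was the highest on average over all cultures, but in WT culture C Fn1 was above it, with 5479 against 4427.5 CPM. Whether growth state, matrix or GFP population bears on the level of the members was not tested.

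**Figure D5:**
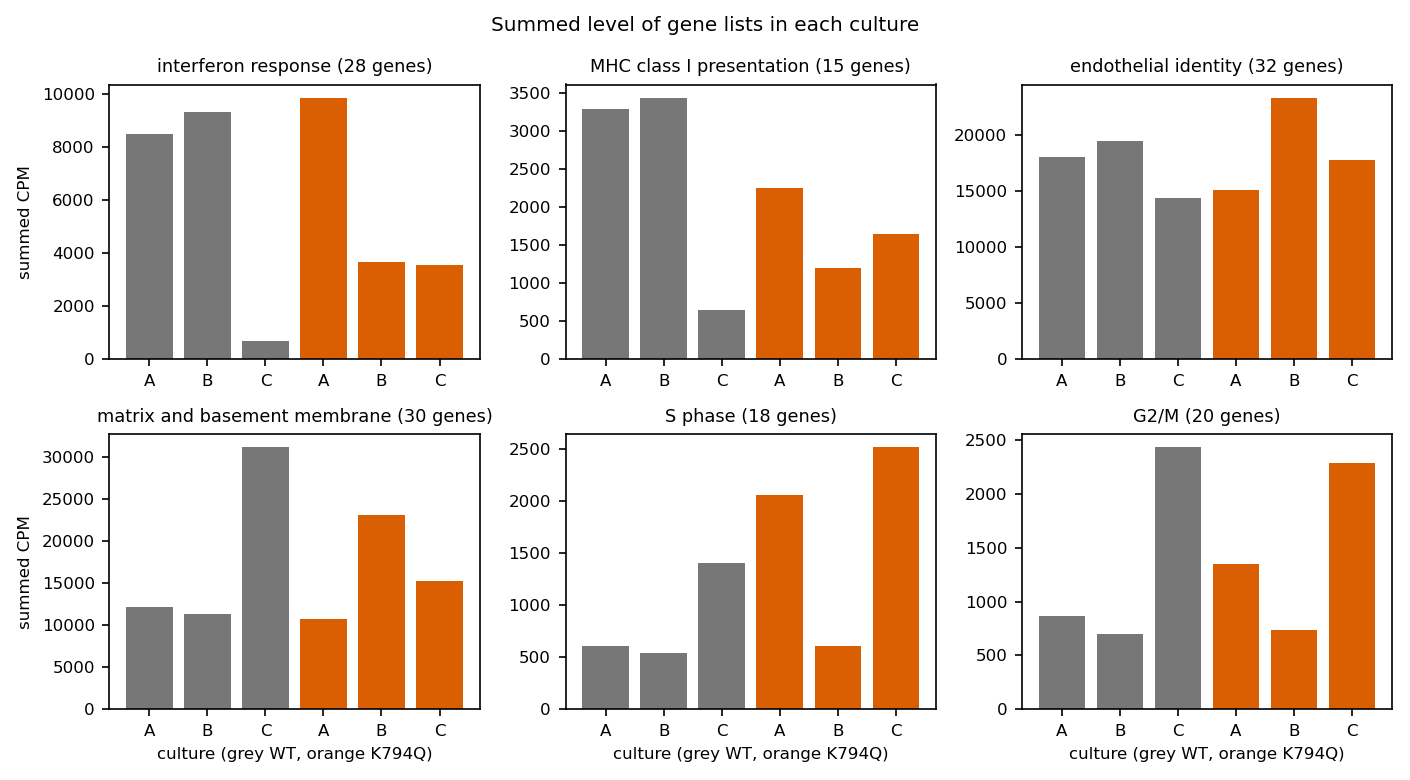
Bars give the summed CPM of 6 gene lists in WT (grey) and K794Q (orange) cultures A, B and C. The interferon response list stands at 695 CPM in WT culture C against 8498 and 9332 CPM in WT cultures A and B, while the endothelial list stands at 14387 against 18004 and 19447 CPM.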

How the data were processed

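The values are raw counts, which the authors deposited as a single table over mouse gene symbols. The submitters' processing notes name bcl2fastq 2.20.0, STAR 2.7.4a, HTSeq 0.9.1 and edgeR 3.38.4 with mm10; the annotation and the strand setting are not given in the sources used here. From the counts, CPM on column totals gave the members, with a pseudocount of 0.5. All genes were compared in R 4.3.3 with edgeR 4.0.16 (filterByExpr, TMM, quasi-likelihood F-test, two-sided, group only, all 6 cultures, Benjamini-Hochberg adjustment), and DESeq2 1.42.0 as an alternative; p-values measure only the spread between these cultures. A standard error is the size of the log2 fold change divided by the square root of F. Tests were checked on simulated data. Python 3.11.15 was used for tables and plots.

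The members and lists were chosen with earlier results of these data known, and the interferon-inducible grouping, the roles and the list of the interferon pathway after values were seen. Named genes were the 12 members with the highest mean of WT cultures A and B, the 12 with the largest ratio, every member in a gene list, the 6 highest and 6 lowest in K794Q cultures, those with an adjusted p of at most 0.05, and the 3 on either side of the threshold; Car2, Dhx58, Ddx60, Uba7, Ube2l6 and other genes outside it were added by role after their values were seen, and 1 member within the rule is not named.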

Additional observations from a re-analysis of the deposited data

How the results depend on the processing

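The number of members was 241 at a fold of 4 and 55 at a fold of 16, and between 80 and 128 with TMM-scaled sizes, other pseudocounts or other CPM minimums. With only WT culture B or only WT culture A in the rule it was 116 to 120; without WT culture C the rule cannot be applied. At a fold of 4, 17, 43 and 30 members were below WT cultures A and B in K794Q cultures A, B and C. Alternatives for the counts of members less than 2-fold below, and ratios to a single WT culture, were chosen after seeing the data, and each kept its value within 1.5 times.

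Members past both thresholds numbered 6 without the filter on low counts and 4 with RLE normalization, and all genes 916 and 605. DESeq2 gave 6 members and 695 genes. Leaving out each culture in turn gave 3 to 24 members and 501 to 992 genes, with 24 members and 992 genes without WT culture C and 942 genes without K794Q culture B; the cause was not tested. Members with an adjusted p of at most 0.05, for which the alternatives were chosen after seeing the data, numbered 0 except for 3 with DESeq2, beside 477 of 11608 genes, and 2 without WT culture C, beside 28 of 11844. The 21 genes of all numbered 1 with the replicate block and 0 to 125 with a culture left out. With the replicate block (culture letter) there were 6 members, 2 lower (Pex5l, Vcan) and 4 higher, and 571 genes. Same-letter deviations from the group means correlated at 0.0947, 0.0548 and 0.0952 for A, B and C, all of them below 0.1. K794Q culture A correlated best with WT culture B (0.0954), so not every culture correlated best with its own letter. Depth limits the values of genes with few counts, such as Gbp10 in WT culture C.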
